A study of Homo sapiens with 6 samples.

Results

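Distal binding sites of DPF3a that lie close together on the chromosome were described in 786-O, a long-used cell line derived from a clear cell renal carcinoma. A DPF3a peak was distal when its summit lay more than 1000 bp from every GENCODE transcript start, distal peaks on chromosomes 1 to 22 and X were joined when the gap between them was at most 12500 bp, and joined regions with 5 or more peaks were kept. This gave 454 clusters out of 26515 joined regions. The clusters held 2691 of 38742 distal DPF3a peaks, 6.95% (95% Wilson interval 6.697 to 7.203), and the DPF3a list held 51440 peaks on these chromosomes. The clusters were therefore defined by the measured positions of DPF3a peaks, so their number of DPF3a peaks, their span and the strength of those peaks are given as a description and were not tested.

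The data came from sequencing of DNA bound by 3 factors and recovered by immunoprecipitation (ChIP-seq), with 2 libraries per factor and 1 deposited peak list per factor made from both libraries. DPF3a carried an HA tag, was overexpressed and was pulled down with an HA antibody from chromatin fixed with the protein crosslinker DSG and then formaldehyde. SMAD4 and p300 were pulled down with antibodies against the proteins themselves from chromatin fixed with formaldehyde, and the labels do not say whether those cells overexpressed DPF3a. No input library is named, no list is labelled as coming from cells without DPF3a overexpression, and no expression was analysed here, so cell identity could not be checked against marker genes. No value has a spread between replicates. All intervals are at 95% and cover counting error only. Peaks of 1 cluster share a locus and are not independent, so intervals over peaks are too narrow.

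DPF3 belongs to the SWI/SNF (BAF) complex, and DPF3a is its shorter form. The complex moves nucleosomes and opens chromatin, much of it at enhancers away from promoters. Stretches in which many such sites lie side by side are often found around genes that define a cell's identity or respond to its signals. SMAD4 is the common partner of the receptor-activated SMADs in TGF-β and BMP signalling, p300 is a histone acetyltransferase that acts at active enhancers, and AP-1, RUNX and TEAD factors are DNA-binding proteins that commonly occupy such elements.

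Sequences at the strongest summit of a cluster are shown because they carry the DNA elements counted further on. For each of the 20 clusters with the largest summed fold enrichment, the 50 bases to either side of the summit with the highest fold enrichment were read from hg38. Fold enrichment is the pileup of reads at the summit divided by the local background, with 1 added to both, as the peak caller gave it. A DNA element was counted when its exact letters stood on either strand, and capitals mark those letters. An AP-1 element, TGACTCA, stood at 5 of these 20 summits, which lie in introns of MYO1E, RPRD1B or TGM2, PTGIS and ABTB2 and, for the cluster at DDAH1, outside protein-coding genes. It stood at 26.0% of all distal summits and at 31.7% of the strongest summits of all 454 clusters, so 5 of 20 does not set these clusters apart. The summit of the DDAH1 cluster also held a RUNX element (TGTGGTT), and that of PTGIS a TEAD element (CATTCCA).
MYO1E (chr15:59274308-59274408, plus strand): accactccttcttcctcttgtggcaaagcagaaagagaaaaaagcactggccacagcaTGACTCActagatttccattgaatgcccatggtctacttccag
RPRD1B/TGM2 (chr20:38110098-38110198, plus strand): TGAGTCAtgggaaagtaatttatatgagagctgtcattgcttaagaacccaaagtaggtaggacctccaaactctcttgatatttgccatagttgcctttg
DDAH1 (chr1:85289592-85289692, plus strand): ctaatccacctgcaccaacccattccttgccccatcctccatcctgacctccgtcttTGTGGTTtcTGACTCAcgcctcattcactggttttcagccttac
PTGIS (chr20:49562416-49562516, plus strand): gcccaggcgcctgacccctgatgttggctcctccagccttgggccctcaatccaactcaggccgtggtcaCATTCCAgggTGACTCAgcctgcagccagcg
ABTB2 (chr11:34302535-34302635, plus strand): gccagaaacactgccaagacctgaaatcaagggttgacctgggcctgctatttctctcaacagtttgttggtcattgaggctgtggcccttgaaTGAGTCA

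A RUNX element without an AP-1 element stood at the summits of the clusters near LPCAT1, at ABLIM1, at NEDD4L and near SNX19. All but the last are shown.
near LPCAT1 (chr5:1555501-1555601, plus strand): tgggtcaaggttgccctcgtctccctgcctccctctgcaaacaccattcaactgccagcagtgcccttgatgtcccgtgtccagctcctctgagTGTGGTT
ABLIM1 (chr10:114597897-114597997, plus strand): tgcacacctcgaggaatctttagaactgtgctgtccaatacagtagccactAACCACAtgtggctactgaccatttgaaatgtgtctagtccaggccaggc
NEDD4L (chr18:58213661-58213761, plus strand): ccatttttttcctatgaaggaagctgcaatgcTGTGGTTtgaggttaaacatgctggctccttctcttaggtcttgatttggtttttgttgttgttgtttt

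None of the letters of these 3 elements stood at the strongest summits of the clusters at SMAD3, at TNC and near CDKN1A, which is a statement about these windows and these exact letters. Of the 20 strongest summits, 10 held none of these letters, and all 20 touched a SMAD4 peak. The 3 shown are those of the 10 that also touched a p300 peak, and the other 7 did not touch one.
SMAD3 (chr15:67134153-67134253, plus strand): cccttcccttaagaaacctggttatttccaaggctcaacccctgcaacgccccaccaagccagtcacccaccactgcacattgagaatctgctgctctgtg
TNC (chr9:115146732-115146832, plus strand): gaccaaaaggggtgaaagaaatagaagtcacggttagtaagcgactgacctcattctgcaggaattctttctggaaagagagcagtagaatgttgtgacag
near CDKN1A (chr6:36667238-36667338, plus strand): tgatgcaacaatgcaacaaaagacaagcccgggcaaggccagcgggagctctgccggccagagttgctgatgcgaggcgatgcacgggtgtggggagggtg

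The 454 clusters were the upper end of a steep distribution. Of the joined regions, 18887 held 1 distal DPF3a peak and 7174 held 2 to 4. The regions just outside the threshold, with 4 peaks, numbered 598, and those just inside, with 5 peaks, numbered 246. The median span of the former was 19.3 kb and that of the latter 25.05 kb, and the median summed fold enrichment was 27.9 and 34.6. Among the clusters, 97 held 6 peaks, 62 held 7 and 49 held 8 or more, up to 14 in the cluster in MYO1E.

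**Figure D1:**
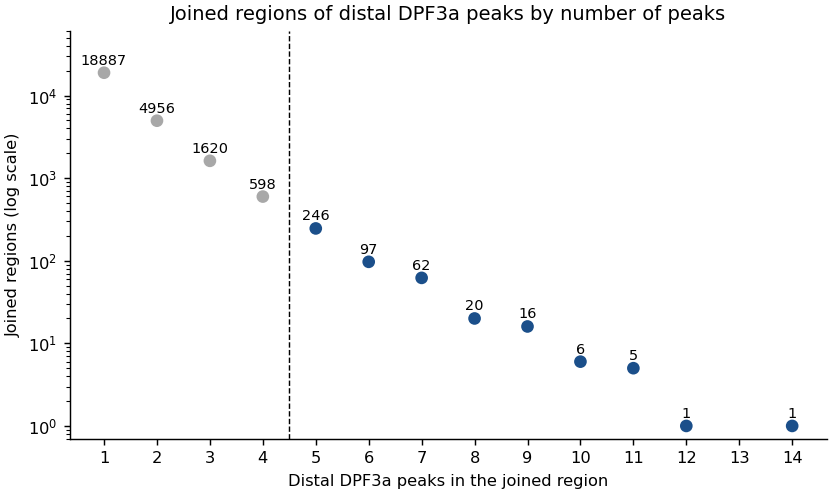
Number of joined regions (log scale) by the number of distal DPF3a peaks they held. The dashed line is the threshold, the 454 regions to its right (dark points) are the clusters, and the count over each point is the number of regions, from 18887 with 1 peak to 1 with 14 peaks.

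The clusters spanned 14.1 Mb, 0.483% of the 2911.2 Mb of sequence on these chromosomes. Their span ran from 8.55 to 84.0 kb with a median of 28.6 kb, and the gap between neighbouring peaks inside them had a median of 5.41 kb. The summed fold enrichment ran from 19.8 to 94.8 with a median of 38.3. The strongest peak of a cluster made up a median of 26.6% of its sum (range 12.5% to 45.6%). The rule itself asks for 5 or more peaks, so each sum adds up several. Across the 454 clusters the sum rose with the number of peaks (Spearman's rho 0.63), which the addition itself brings about, and 10 of the first 20 clusters by this sum were also among the first 20 by summed −log10 q, the peak caller's adjusted significance.

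**Figure D2:**
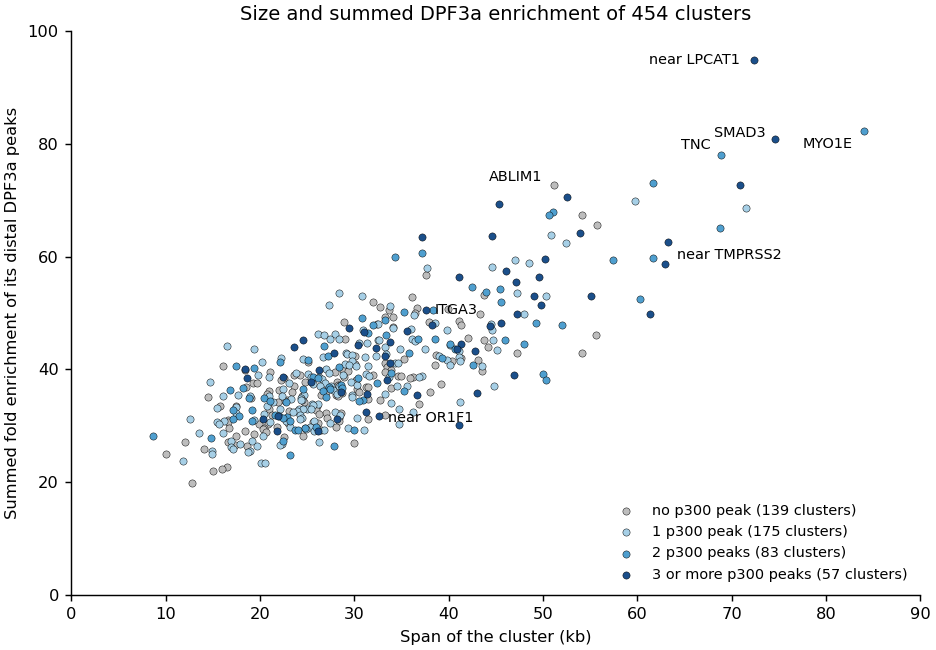
Span in kb against the summed fold enrichment of the distal DPF3a peaks for each of the 454 clusters (1 point each), coloured by the number of p300 peaks inside. The cluster near LPCAT1 stands highest with a sum of 94.8, the cluster in MYO1E is the longest at 84.0 kb, and clusters without a p300 peak reach a sum of 72.8 at ABLIM1.

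Clusters were present on all 23 chromosomes and were unevenly spread. Per 100 Mb of sequence there were 35.8 clusters on chromosome 22, 34.4 on chromosome 20 and 27.9 on chromosome 9, against 4.42 on chromosome 14 and 0.646 on chromosome X, which had 1 cluster. The density of all distal DPF3a peaks varied less, with 15.8 per Mb on chromosome 22, 16.8 on chromosome 20, 8.82 on chromosome 14 and 5.96 on chromosome X. The median local background at distal peaks was 2.98 reads on chromosome 22, 3.20 on chromosome 20, 1.90 on chromosome 14 and 1.72 on chromosome X. It did not follow the density of clusters on every chromosome. Chromosomes 17 and 7 had 3.06 and 3.22 reads with 7.24 and 13.8 clusters per 100 Mb. The part of DNA copy number in these values was not tested.

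The largest sum, 94.8, belonged to a cluster of 10 peaks over 72.4 kb on chromosome 5 (chr5:1536246-1608666), outside protein-coding genes and 12.3 kb from a start of LPCAT1, an enzyme that remodels membrane phospholipids. Its 10 peaks had fold enrichments of 7.34, 10.7, 4.73, 16.2, 7.78, 6.48, 5.597, 14.9, 6.17 and 14.8 from one end to the other. Of these, 7 touched a SMAD4 peak and 3 touched a p300 peak. The 3 peaks without SMAD4 had 4.73, 5.597 and 6.17 and were the 3 weakest.

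The cluster in MYO1E, which encodes an unconventional myosin that podocytes need, was the longest and held the most peaks, 14 over 84.0 kb with a sum of 82.2 (chr15:59232525-59316509). All of its summits lay in introns. Its fold enrichments ran from 3.18 to 10.3, and 10 of its peaks touched SMAD4 and 2 touched p300. A further cluster in the same gene lay 31.9 kb away.

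The cluster in SMAD3, the receptor-activated SMAD of the TGF-β branch, held 12 distal DPF3a peaks over 74.6 kb with a sum of 80.9 (chr15:67076191-67150803). It also held 13 SMAD4 peaks, the most of any cluster, and 5 p300 peaks. All 12 DPF3a summits lay in introns, and 10 touched SMAD4 and 4 touched p300. The 2 strongest, with 11.4 and 11.1, both touched SMAD4, and the first also touched p300. The span held 2 further DPF3a peaks at transcript starts, which the rule left out.

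The cluster at TNC, which encodes the matrix glycoprotein tenascin-C, held 9 peaks over 68.9 kb with a sum of 78.1, of which 6 touched SMAD4 and 2 touched p300. It reached from introns of the gene past its start. None of its 9 summits had an AP-1 element within 50 bp.

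The next clusters in the order held 8 to 11 peaks each. A cluster 64.9 kb from BCAS1 had a sum of 73.0, and that in ABLIM1, an actin-binding LIM protein, had 72.8. The ABLIM1 cluster held 11 SMAD4 peaks, as many as its distal DPF3a peaks, and no p300 peak. A cluster overlapping GNG12, a G-protein gamma subunit, and 15.3 kb from GADD45A, a stress-induced growth arrest gene, had 72.7. A cluster 466.0 kb from the nearest protein-coding start, that of the lens crystallin CRYBA4, had 70.7 and held 12 SMAD4 and 4 p300 peaks. NEDD4L, a ubiquitin ligase that acts on the epithelial sodium channel, had a cluster with a sum of 69.9, and one 13.4 kb from GRB10, an adaptor that restrains insulin receptor signalling, had 69.4.

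The 11th cluster in this order (sum 68.7) overlapped the long non-coding RNA gene CARMN and the microRNA genes MIR143 and MIR145. It lay 26.8 kb from CSNK1A1, a casein kinase. Those following were at RPRD1B and TGM2 (67.9), the latter encoding transglutaminase 2, at F2RL1 (67.4), which encodes protease-activated receptor 2, and at DDAH1 (67.4), an enzyme that clears an inhibitor of nitric oxide synthesis. Clusters near SNX19 (65.6), in FOXP1, a forkhead transcription factor (65.0), at PTGIS, prostacyclin synthase (64.1), near CDKN1A, the cell cycle inhibitor p21 (63.9), in ABTB2 (63.7) and in SH3TC2 (63.4) completed the first 20. Of these 20, 7 lay within 1 protein-coding gene and 7 overlapped none. All 20 held 6 to 13 SMAD4 peaks, and 17 held a p300 peak, the exceptions being ABLIM1, F2RL1 and the cluster near SNX19.

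**Figure D3:**
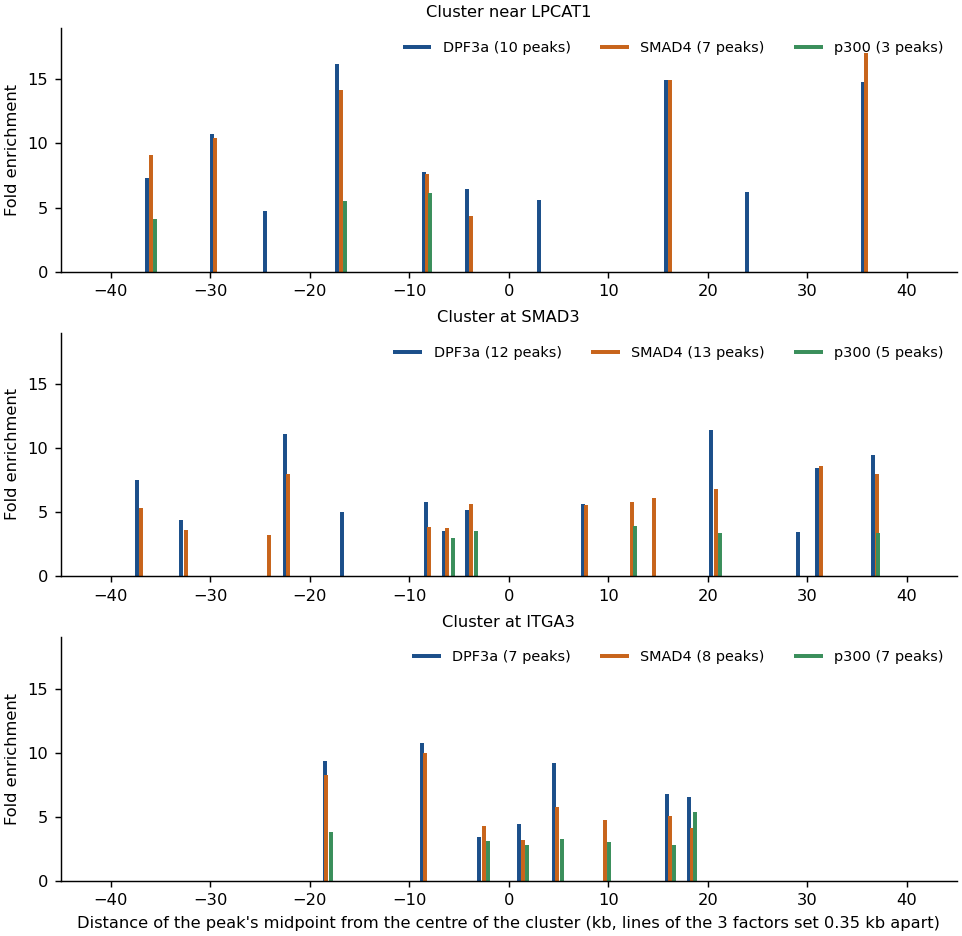
Fold enrichment of the distal DPF3a peaks and of all SMAD4 and p300 peaks in the clusters near LPCAT1, at SMAD3 and at ITGA3, by the distance of each peak's midpoint from the centre of the cluster in kb. DPF3a peaks at transcript starts, 2 at SMAD3 and 1 at ITGA3, are not drawn. Each line is 1 peak, lines of the 3 factors are set slightly apart, and heights are comparable within a factor only. Near LPCAT1 3 DPF3a peaks stand without SMAD4, SMAD3 holds 13 SMAD4 peaks, and ITGA3 holds 7 p300 peaks beside 7 distal DPF3a peaks.

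Nearly all clusters held SMAD4. A SMAD4 peak lay in 452 of the 454 clusters, 99.6% (98.41 to 99.88), where 63.8% of all joined regions held one. A larger region has more room for a peak, and the share was 54.4% for regions of 1 peak, 86.2% for 2 to 4 peaks and 98.5% for 4 peaks. The clusters held a median of 5 SMAD4 peaks (quartiles 4 and 6), 2288 in all, which was 4.94% of the SMAD4 list. Of the clusters, 74 held more SMAD4 than distal DPF3a peaks, 107 held as many and 273 held fewer. These counts are not alike, since DPF3a counts of clusters leave out peaks at transcript starts and SMAD4 and p300 counts include them. Of the SMAD4 peaks inside, 2176 lay over 1000 bp from a start. In 116 clusters every DPF3a peak touched SMAD4. Only 173 SMAD4 peaks inside the clusters touched no DPF3a peak. The 2 clusters without SMAD4, named after their values were seen, lay in TMEM232 with 5 DPF3a peaks and 243.1 kb from MECOM, a zinc finger transcription factor, with 6, and neither held a p300 peak.

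p300 was sparser and more variable. At least 1 p300 peak lay in 315 clusters, 69.4% (65.0 to 73.5), where 17.6% of all joined regions held one. The share was 11.1% for regions of 1 peak, 31.6% for 2 to 4 peaks, 56.2% for 4 peaks, 63.4% for 5 peaks and 89.8% for 8 or more. By number, 139 clusters held no p300 peak, 175 held 1, 83 held 2 and 57 held 3 or more, 543 peaks in all. Peaks of all 3 factors touched at 1 place at least in 283 clusters, and at 2 places or more in 107. These counts depend on how many peaks a cluster holds. Per peak, 16.8% of cluster peaks touched both SMAD4 and p300, against 11.5% of other distal peaks and 11.8% of all distal peaks. The number of p300 peaks followed the number of DPF3a peaks less closely (Spearman's rho 0.30 over the 454 clusters) than the number of SMAD4 peaks did (0.59). A longer cluster has more room for peaks, and the number of DPF3a peaks rose with the span (Spearman's rho 0.64). The numbers of SMAD4 and p300 peaks were not compared with the span.

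The cluster at ITGA3, which encodes the α3 subunit of a laminin-binding integrin, held the most p300 peaks, 7, together with 8 SMAD4 peaks and 7 distal DPF3a peaks over 37.6 kb (chr17:50027495-50065108). Its DPF3a fold enrichments were 9.36, 10.8, 3.42, 4.43, 9.23, 6.74 and 6.53 in order along the chromosome. All 7 touched SMAD4 and 6 touched p300, and the 1 that did not, with 10.8, was the strongest. Its sum of 50.5 placed it 60th, so the order by DPF3a enrichment and the order by p300 were not the same.

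A cluster 5.2 kb from the olfactory receptor gene OR1F1 followed with 6 p300 peaks, and 5 of its 6 distal DPF3a peaks touched p300, although its sum of 31.7 was below the median. With 5 p300 peaks each came those in SMAD3, 70.1 kb from TMPRSS2, a transmembrane serine protease, at MLPH, whose span lies 41.7 kb from the start of the collagen gene COL6A3, 113.8 kb from the oncogene MYC, and in AFF3. Across the clusters the summed fold enrichment and the number of p300 peaks had a Spearman's rho of 0.23.

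Peak by peak, DPF3a sites in clusters touched SMAD4 more often than other distal DPF3a sites. Of the 2691 cluster peaks 2062 touched SMAD4 by at least 1 bp, 76.6% (74.99 to 78.19), against 59.6% of the 36051 other distal peaks (59.1 to 60.1) and 60.8% of all distal peaks. The difference was 17.0 percentage points (Newcombe interval 15.3 to 18.6). For p300 the shares were 17.1% (15.8 to 18.6) and 12.2% (11.8 to 12.5), against 12.5% of all distal peaks, a difference of 4.94 points (3.52 to 6.45). Both shares were higher in regions of more peaks without a step at the threshold, and neighbouring sizes among the clusters had overlapping intervals. SMAD4 was touched by 54.4% of single peaks, 62.6% in regions of 2, 67.2% of 3, 73.0% of 4, 75.4% of 5, 78.0% of 6, 74.9% of 7 and 79.8% of 8 or more, and p300 by 11.1%, 12.4%, 14.2%, 16.2%, 15.2%, 17.4%, 20.3% and 19.1%. Requiring an overlap of 0.5 of both peaks gave 70.9% for SMAD4 and 13.3% for p300 in clusters, with differences of 16.7 and 5.01 points.

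The p300 contacts of cluster peaks lay almost all at peaks that also touched SMAD4, 452 of 461, as did those of other distal peaks, 4136 of 4394. Among peaks touching SMAD4, 21.9% of those in clusters and 19.2% of the others touched p300, a difference of 2.68 points (0.866 to 4.59). Among peaks not touching SMAD4, 1.43% and 1.77% did, a difference of -0.342 points (-1.05 to 0.940). Summits of DPF3a and SMAD4 lay close together where the peaks touched, with a median offset of 44 bp in clusters and 44 bp elsewhere, and the DPF3a and p300 summits lay 92 and 97 bp apart.

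Within a cluster, the strongest DPF3a peaks were the ones that touched SMAD4 and p300 most often. The peak with the highest fold enrichment touched SMAD4 in 96.3% of clusters (94.1 to 97.6), the second in 87.4%, the third in 80.6%, the fourth in 71.6% and the fifth in 61.2% (56.7 to 65.6). For p300 the shares were 32.4% (28.2 to 36.8), 22.5%, 14.3%, 12.3% and 10.6% (8.07 to 13.7). The shares of other distal peaks also rose with fold enrichment, so this is not particular to clusters. From the lowest to the highest quartile group of fold enrichment they went from 39.0% to 85.6% for SMAD4 and from 5.89% to 23.7% for p300. Position within the cluster made little difference. The outermost peaks touched SMAD4 in 76.0% (73.1 to 78.7) and p300 in 16.7% (14.4 to 19.3), and the inner peaks in 76.9% (74.9 to 78.8) and 17.3% (15.6 to 19.2).

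**Figure D4:**
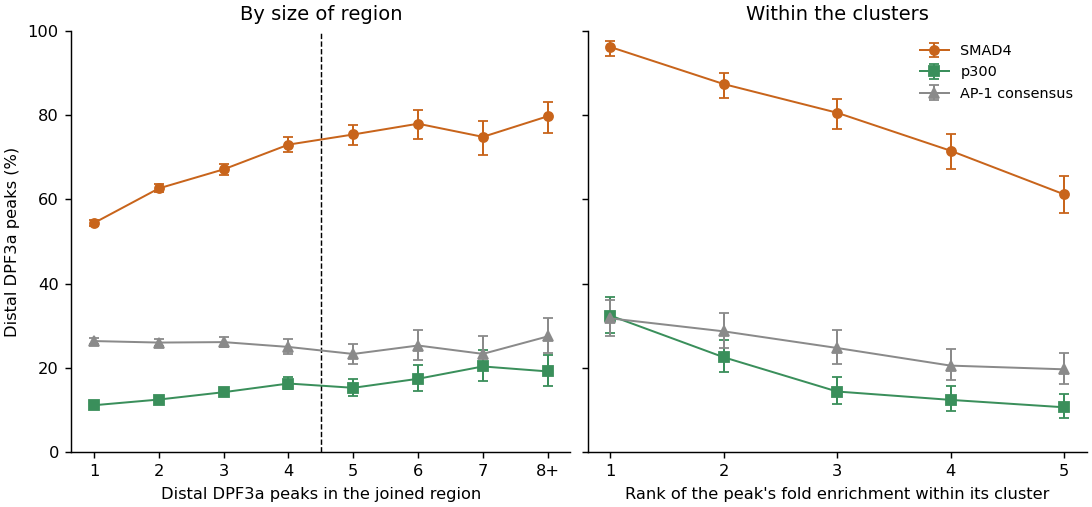
Share of distal DPF3a peaks that touched a SMAD4 peak, touched a p300 peak or had an AP-1 element within 50 bp of the summit, by the number of peaks in the joined region (left; the dashed line is the threshold for clusters) and by the rank of the peak within its cluster (right, 454 peaks per point). Bars are 95% Wilson intervals. The SMAD4 share is 54.4% for single peaks and 79.8% in regions of 8 or more, and it falls from 96.3% to 61.2% from the strongest to the fifth peak of a cluster.

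Individual peaks in clusters were not stronger by fold enrichment, with a median of 6.08 (quartiles 4.78 and 8.17) against 7.26 (5.69 and 9.64) for other distal peaks. They were taller, with a median of 37 against 26 reads at the summit, and stood on a higher local background, 5.18 against 2.62 reads. The local background was highest where the next distal peak was closest. In clusters its median was 7.10 reads for peaks with another within 2 kb, 5.74 for 2 to 5 kb and 3.36 beyond 5 kb, and for distal peaks with none within the joining distance it was 2.08. Whether the peak caller took this background from the ChIP libraries themselves or from an input is not given in the sources used here.

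The larger share of SMAD4 in clusters moved with this background. The distal DPF3a peaks were split at the quartiles of each measure into 4 groups. Within the groups of DPF3a fold enrichment, cluster peaks touched SMAD4 more often in each of the 4, by 22.3 (19.2 to 25.3), 32.8 (29.3 to 35.9), 23.2 (20.1 to 25.8) and 12.4 points (10.4 to 13.6) from the lowest to the highest. Within quartile groups of local background, however, the differences were 10.8 (2.26 to 19.9), -0.308 (-5.76 to 5.07), -1.21 (-4.90 to 2.21) and 0.0464 points (-1.92 to 1.87). In the highest quartile group, which held 1607 of the 2691 cluster peaks, the shares were 85.4% and 85.3%. Within quartile groups of summit height the differences were 10.4 (3.95 to 17.5), 6.42 (2.24 to 10.6), 4.25 (1.13 to 7.13) and 1.68 points (0.322 to 2.75), and within those of GC content they were 20.4, 17.9, 13.1 and 9.22 points, each with an interval above 0.

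For p300 the same comparison gave differences of 3.92, 8.51, 7.92 and 12.7 points within quartile groups of fold enrichment, each with an interval above 0. Within quartile groups of local background they were -1.35 (-2.64 to 2.97), -1.88 (-3.90 to 1.14), -0.867 (-3.41 to 2.10) and -4.15 points (-6.34 to -1.85), and in the highest quartile group p300 was touched by 22.2% of cluster peaks and 26.3% of the others. In the upper 3 groups of local background the interval of the SMAD4 difference thus included 0, and in the highest group p300 was touched less often in clusters. Within quartile groups of summit height the p300 differences were -1.81 (-2.65 to 0.891), 0.254 (-1.44 to 2.51), 2.35 (0.0771 to 4.93) and -0.914 points (-3.698 to 2.004). The part of local background in the larger shares was not tested further.

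**Figure D5:**
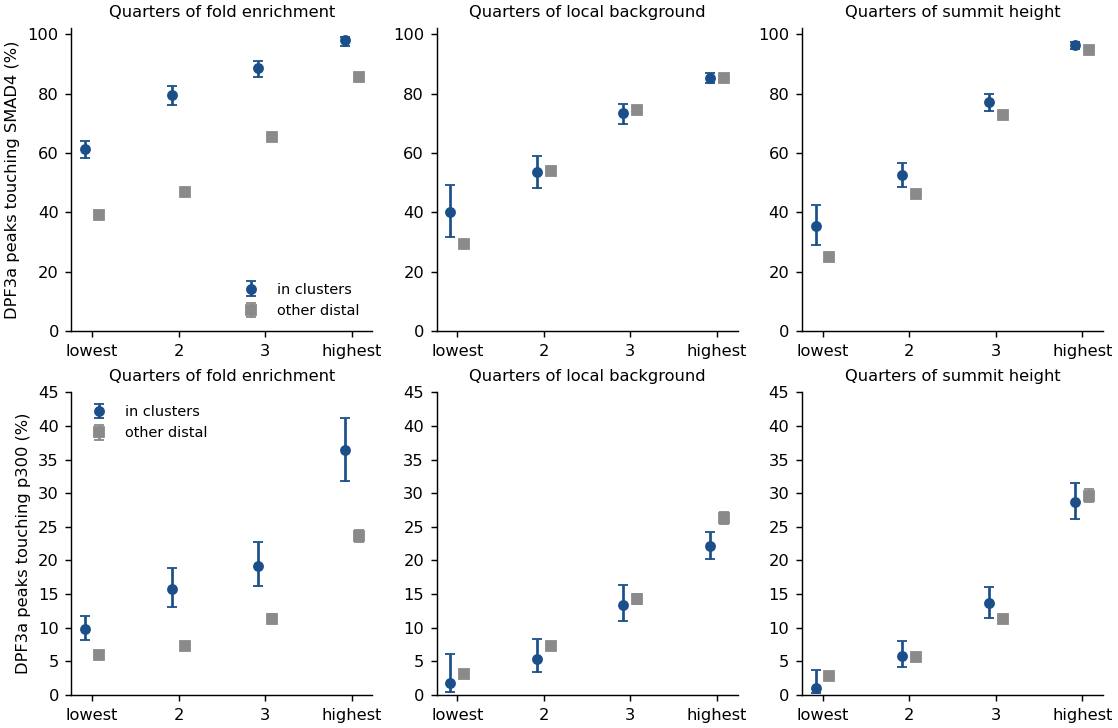
Share of DPF3a peaks touching SMAD4 (top) and p300 (bottom) in clusters (circles) and among other distal peaks (squares), within quartile groups of fold enrichment, local background and summit height of all distal DPF3a peaks. Bars are 95% Wilson intervals. Circles stand above squares in each quartile group of fold enrichment, and in the upper 3 quartile groups of local background the SMAD4 shares nearly coincide, with 85.4% and 85.3% in the highest.

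The density of SMAD4 peaks in the clusters was 16.3 per 100 kb against 1.59 per 100 kb of all sequence on these chromosomes, and that of p300 peaks was 3.86 against 0.699. For DPF3a it was 19.1 distal peaks in the clusters against 1.77 peaks of any kind. The rule selected dense DPF3a peaks, and 60.8% of all distal DPF3a peaks touched SMAD4, so these densities are a description only. When the joining rule was applied to the SMAD4 list, it gave 390 clusters of distal SMAD4 peaks. Of the DPF3a clusters 229 overlapped one of these, 50.4% (45.9 to 55.0), and of the SMAD4 clusters 225 overlapped a DPF3a cluster, 57.7% (52.7 to 62.5). The p300 list, with 10840 distal peaks against 30281 for SMAD4, gave 30 clusters by this rule, of which 1 overlapped a DPF3a cluster.

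The DNA elements at cluster summits were much like those at other distal summits. An AP-1 element lay within 50 bp of 24.4% of cluster summits (22.8 to 26.0), 26.1% of the others (25.6 to 26.5) and 26.0% of all distal summits, and in windows 500 bp away it was found at 1.37% and 1.63%. The difference was -1.72 points (-3.37 to -0.00062). In contrast to SMAD4, the AP-1 share did not climb with the number of peaks in a region. The RUNX letters were found at 7.02% and 8.44%, a difference of -1.42 points (-2.37 to -0.348), and the TEAD letters at 6.36% and 5.71%, a difference of 0.649 points (-0.246 to 1.66). In the windows 500 bp away in clusters, these were present at 1.78% and 2.304%.

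Since a cluster holds several summits, most clusters had an AP-1 element somewhere. At least 1 summit with the AP-1 letters was present in 368 clusters, 81.1% (77.2 to 84.4), and 75 had 3 or more. A region with more summits has more places for the letters. Per summit the share was 24.4% in clusters and 26.0% over all distal peaks, so the count does not set clusters apart. Within a cluster the strongest peak held the element in 31.7% (27.6 to 36.1) and the fifth in 19.6% (16.2 to 23.5). The E-box CAGCTG was found at 7.13% of cluster summits and 6.73% of the others, against 4.76% in the distant windows of the former. The palindromic SMAD element GTCTAGAC was found at 4 cluster summits, 0.149% against 0.0666% of the others. The cyclic AMP element TGACGTCA was found at 2, 0.0743% against 0.0777%, and the NF-κB element GGAATTTCC at 17, 0.632% against 0.433%. The interval of the difference included 0 for the E-box and for these 3. The hypoxia element TACGTGC was found at 15, which was 0.557% against 0.294% of other distal summits, a difference of 0.263 points (0.0356 to 0.627), and at 0.260% of the windows 500 bp away from the cluster summits. In all, 12 elements were compared, and no interval was adjusted for their number. The letters searched for ETS (ACCGGAAGT) were present at 1 cluster summit, those of NFI at 1, and those of HNF1 and CTCF at none.

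Most clusters overlapped a protein-coding gene. The rule kept only summits more than 1000 bp from every transcript start, so distances from starts are given as a description. A protein-coding gene was overlapped by 286 clusters, 63.0% (58.5 to 67.3), and the 37.0% that overlapped none compare with 48.1% of the other joined regions. Of the clusters, 207 lay within 1 gene, 45.6% (41.1 to 50.2), against 49.5% of the other joined regions, which are shorter. Of these 207, 129 had their centre closer to the start than to the end of the gene, 62.3% (55.5 to 68.6), and the clusters covered a median of 15% of the gene. A protein-coding start lay inside 96 clusters. For the other 358 the nearest one was at a median distance of 31.3 kb (quartiles 12.9 and 80.3 kb), and 72 clusters were more than 100 kb from any. At 58 clusters the span also included 1 or 2 DPF3a peaks at transcript starts. Summits in clusters lay in a protein-coding gene in 55.4% (53.6 to 57.3), against 51.4% of the others.

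In all, 293 protein-coding genes overlapped a cluster. Of these, 20 overlapped 2 clusters, among them TEAD1, the Hippo pathway transcription factor, ROR1, a receptor tyrosine kinase-like protein, PAPPA, a protease of IGF-binding proteins, ZMIZ1, a transcriptional coactivator, and CUBN, the endocytic receptor cubilin of the kidney proximal tubule. There were 33 pairs of neighbouring clusters at most 100 kb apart. One pair lay 17.0 kb apart near CAV1, which encodes caveolin-1, and near MET, the receptor for hepatocyte growth factor.

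The genes of 15 pathway and cell type lists were then looked up. A gene was counted when its body overlapped a cluster, which held for 1.51% of all 19360 protein-coding genes, or when its start lay within 50 kb of one, which held for 2.12%. Of the 375 listed genes 25 overlapped a cluster (6.67%) and 36 had their start within 50 kb (9.60%). Longer genes have more room for a cluster. Genes that overlapped a cluster had a median length of 132.0 kb, the listed genes 52.1 kb and all genes 27.3 kb. Within classes of length the listed genes stood at 0.926% (1 of 108) against 0.197% under 20 kb and 4% (3 of 75) against 0.874% from 20 to 50 kb. The shares were 6.25% (5 of 80) against 1.84% from 50 to 100 kb and 10.6% (7 of 66) against 3.8% from 100 to 200 kb. Above that they were 19.6% (9 of 46) against 6.996%. The counts of listed genes are small. The lists were chosen with results of these data known, so these shares are a description.

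In the TGF-β and BMP pathway 3 of 52 genes overlapped a cluster and 6 had their start within 50 kb. Those overlapped were SMAD3, SMAD6, an inhibitory SMAD, and PMEPA1, a membrane protein that dampens the pathway. The SMAD6 cluster held 5 DPF3a, 5 SMAD4 and 2 p300 peaks with a sum of 34.9, and that at PMEPA1 held 5 DPF3a, 6 SMAD4 and no p300 peaks with a sum of 36.4. Clusters also lay 7.8 kb from the start of TGFBI, a matrix protein induced by TGF-β (7 DPF3a, 5 SMAD4 and 1 p300 peaks, sum 41.9), 9.1 kb from SMURF2, a ubiquitin ligase for receptors and SMADs (5, 3 and 1, sum 44.99), and 43.4 kb from FSTL3, an inhibitor of activins (5, 4 and 1, sum 37.0). Of the ligands and receptors on the list none was overlapped.

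Of the 26 Hippo effectors and targets 4 overlapped a cluster and 4 had their start within 50 kb. WWTR1, the coactivator TAZ, held 8 DPF3a, 6 SMAD4 and 2 p300 peaks with a sum of 53.8, and WWC1, an upstream regulator also called KIBRA, held 8, 9 and 1 with a sum of 49.8. TEAD1 had one cluster of 7 peaks (sum 36.5) and another of 5 (sum 29.8), and the phosphatase gene PTPN14 had one of 5 (sum 36.8). Near the starts of AMOTL2, an angiomotin, and CCN1, a secreted target of the pathway, there were clusters of 7 and 5 peaks.

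Among 44 collagen, laminin and other matrix genes, 6 overlapped a cluster and 6 had their start within 50 kb. Besides TNC these were COL4A2, a basement membrane collagen (6 peaks, sum 39.7), COL27A1 (5 peaks, sum 31.4), HSPG2, the proteoglycan perlecan (5 peaks, sum 28.9), and the laminin genes LAMB1 (6 peaks, sum 30.4) and LAMB3 (5 peaks, sum 31.4). COL18A1 and COL6A3 had clusters within 50 kb of the start. Of 27 integrin and cadherin genes ITGA3 was overlapped, and a cluster of 6 DPF3a, 7 SMAD4 and 3 p300 peaks lay 5.1 kb from the start of ITGB6, the β6 integrin subunit that activates latent TGF-β.

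Of 30 genes of metalloproteases and their inhibitors, ADAM12 was overlapped (5 peaks, sum 46.0), and MMP17, MMP7 and TIMP4 had a cluster within 50 kb of the start. Of 10 genes of the plasminogen system, S100A10 was overlapped and the start of PLAU, which encodes urokinase, lay 1.9 kb from a cluster of 5 peaks. Among 37 genes of the actin cytoskeleton and mesenchymal cells 4 were overlapped. Among these were MYH9, non-muscle myosin IIA, with 8 DPF3a and 10 SMAD4 peaks but no p300 peak, MYLK, myosin light chain kinase, with 6, 6 and 1, and CAVIN1, a caveolar coat protein, with 5, 4 and 1. Another cluster, which overlapped TXN2 and not MYH9, lay 42.9 kb from the MYH9 start with 7 DPF3a, 7 SMAD4 and 1 p300 peaks.

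Of 25 receptor tyrosine kinase and adaptor genes, EGFR was overlapped by a cluster of 7 peaks (sum 37.0), and EPHA2, HBEGF, a ligand of EGFR, and MET had a cluster within 50 kb of the start. The EPHA2 cluster held 7 DPF3a, 8 SMAD4 and 3 p300 peaks. Of 25 hypoxia factors and targets, EPAS1, which encodes HIF-2α, was overlapped by a cluster of 5 DPF3a, 4 SMAD4 and 1 p300 peaks with a sum of 29.2, and EGLN3, a prolyl hydroxylase that acts on HIF, by one of 5, 6 and 2 with a sum of 41.6, 84.4 kb from the nearest start of the gene. CUBN was the single gene of 20 of the renal lineage, and RUNX1 the single one of 4 RUNX family genes, with 5 peaks.

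The cytokine genes CXCL8 and LIF and the EMT factor gene SNAI1 had a cluster within 50 kb of the start, without overlap of the gene itself. None of the 17 AP-1 subunit genes and none of the 28 SWI/SNF subunit genes, whose median lengths were 12.3 and 46.9 kb, overlapped a cluster or had one within 50 kb of the start. Over all protein-coding genes these shares were 1.51% and 2.12%, so finding none in lists this short says little about these genes.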

How the data were processed

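DPF3a, SMAD4 and p300 ChIP-seq was performed in 786-O cells with 2 libraries per factor. According to the study's methods and the labels, the authors trimmed adapters, mapped reads to hg38 with Bowtie2 (version 2.3.5.1), dropped duplicates and reads that mapped poorly or to mitochondria, and called peaks with MACS2 (version 2.2.5). How both libraries were combined into 1 list is not given in the sources used here. The deposited score is −log10 q times 10, rounded down, and the authors kept peaks with a score over 50. The authors' fold enrichment is the ratio of the summit pileup to the local background, each plus 1, and the deposited −log10 p and −log10 q come from the same comparison. Read depth is not given in the files.

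Summit height in reads and local background were recovered from fold enrichment and −log10 p together, with a largest error of 0.00069 in −log10 p. The lowest local background was 1.17 reads. Transcript starts and genes were those of GENCODE release 44, and all 54 sequence names in the lists were found in hg38. A cluster was labelled by the protein-coding genes it overlapped or, with none, by the nearest protein-coding start. Shares have Wilson intervals and differences Newcombe intervals. Some members of the lists are counted but not reported here by name. No test was made, because there is 1 list per factor. Clusters named were the 20 with the largest sum, the 5 with the most DPF3a peaks, the 5 longest, those with the most p300 peaks (ties kept) and those at listed genes. Those without SMAD4, the map of SMAD3, the genes holding 2 clusters and which of the 20 sequences to print were chosen after their values were seen. The clusters, the 15 gene lists and the DNA elements were chosen with earlier results of these data known. Python (3.11.15), pandas (2.3.3) and scipy (1.17.1) were used. Joining and overlap were checked against bedtools (2.31.1), with the same 26515 regions.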

Additional observations from a re-analysis of the deposited data

How the results depend on the processing

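No paired analysis was possible because 1 peak list per factor holds both libraries together, and for the same reason no replicate could be left out. The SMAD4 and p300 differences were above 0 under all 10 alternatives to each, though the p300 interval included 0 with scores over 200, and 35 of 68 values stayed close to those reported. The number of clusters was 136 with scores over 100, 19 with scores over 200, 23 with peaks joined at most 5000 bp apart, 1296 at most 25000 bp apart, 1052 with 4 or more peaks and 49 with 8 or more. A higher score minimum was applied to the SMAD4 and p300 lists as well as to the DPF3a list, so all lists were shorter under it. Under the joins at 5000 and 25000 bp the SMAD4 share of cluster peaks was 84.0% and 72.8%. It was 74.9% with 4 or more peaks, 79.8% with 8 or more and 70.9% with an overlap of 0.5 of both peaks. The SMAD4 difference was 23.5 points with scores over 200, 23.3 with the 5000 bp join and 19.2 with 8 or more peaks. The p300 share was 5.65% with scores over 100 and 2.04% with scores over 200, where the p300 list itself was cut. These values therefore do not compare stronger with weaker DPF3a peaks. It was 20% (5000 bp join), 18.6% (protein-coding starts only), 19.1% (8 or more peaks) and 13.3% (overlap of 0.5 of both). The p300 difference was 1.77 and 0.987 points (interval of the latter -0.504 to 6.09) with scores over 100 and 200, 7.49 with the 5000 bp join and 6.65 with 8 or more peaks. Clusters holding p300 made up 27.9% and 10.5% with scores over 100 and 200, 73.9% and 74.8% with joins at 5000 and 25000 bp, 61.9% with 4 or more peaks and 89.8% with 8 or more. The AP-1 difference was -8.65 points with scores over 200 and -9.21 with the 5000 bp join, and reversed to 1.45 with 8 or more peaks (interval -2.51 to 5.80), where 445 peaks remained. The cause was not tested. Within groups of like local background, the p300 differences were below 0 in all 4, but the interval included 0 in each group except the highest. Leaving out regions within 1000000 bp of assembly gaps, or using summits more than 2500 bp from starts, gave 446 and 337 clusters.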
